A study of Mus musculus with 9 samples.

Results

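The genes described here encode the machinery of oxidative phosphorylation: the subunits of respiratory complexes I to IV and of the ATP synthase (complex V), with a few assembly factors that share their names. They were chosen by name (symbols that begin with Nduf, Uqcr, Atp5 or Cox followed by a digit from 4 to 8, the 4 Sdh genes, and the matching mt- symbols, without pseudogene names). The rule uses no measured value, but it was set with earlier results of these data known. The rule matched 91 of the 40993 genes of the table, of which 84 reached 1 FPKM (fragments per kilobase of transcript, scaled to the mapped fragments of the library) as the average of the 9 libraries. Of the 91, 43 belong to complex I (29 accessory subunits, 7 core subunits and 7 assembly factors), 4 to complex II, 8 to complex III, 19 to complex IV and 17 to complex V. Ndufa4 and Ndufa4l2 were counted with complex IV, and Cox7a2l, Atp5s and Atp5sl share the names of complexes IV and V without being subunits. All 91 are encoded in the nucleus. The subunits encoded by the mitochondrial genome, and the nuclear gene Cox4i1, were not analysed here, so the genomes of origin could not be compared.

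Complexes I and II pass electrons from NADH and succinate to ubiquinone, complex III passes them on to cytochrome c and complex IV to oxygen. Complexes I, III and IV pump protons across the inner mitochondrial membrane, and complex V uses the resulting gradient to make ATP. Microglia, the resident phagocytes of the brain, are known to shift between oxidative phosphorylation and glycolysis when they are activated.

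RNA was sequenced from BV2 cells, an immortalized murine microglial line, after 12 h with MNPs@SiO2(RITC), magnetic nanoparticles with a cobalt ferrite core and a silica shell dyed with rhodamine B isothiocyanate. There were 3 non-treated control libraries, 3 libraries from cells given 10 µg/ml of particles (labelled 0.01 µg/µl, the low dose) and 3 from cells given 100 µg/ml (labelled 0.1 µg/µl, the high dose), so all groups were the same line, with no other agent named in the labels. The questions addressed here were at what level each complex was expressed in this line and whether these levels differed at either dose. The labels do not say that the libraries came from separate cultures, so p-values measure only the spread between these libraries. In bulk RNA fewer cells of a type and less RNA per cell cannot be told apart.

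The deposited FPKM carry no read totals. In genes with a single transcript, the median of the low values inside a preset window was taken as 1 fragment. This put the libraries at about 13700000 to 16500000 fragments each. The window itself limits which depths can come out, so these are only rough values. The defining markers of the labelled cell type were present in part: Cd68, Tyrobp, Emr1, Csf1r, Trem2, Ptprc and Itgam had means between 59.8 and 413 FPKM, Aif1 and Tmem119 were low at 5.12 and 2.15 FPKM, and Cx3cr1, P2ry12 and Sall1 were at or near 0. The 17 markers of astrocytes, neurons, oligodendrocytes, endothelium and fibroblasts all had means under 1 FPKM. In total, 236 of 11161 tested genes passed an adjusted p under 0.05 at the high dose against control in limma, none did at the low dose (366 had an unadjusted p under 0.05), and 95 did between the doses.

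FPKM are scaled by transcript length, so levels can be compared between genes, but only roughly. A pattern that moved in part with transcript length remained between libraries, and some genes share their sequence with copies, both described below. The 84 expressed genes spanned 2.61 to 2655 FPKM with a median of 73.8 FPKM, against a median of 17.3 FPKM over all 11161 tested genes. Together the 91 genes held 2.30 ± 0.0896% (SD, n = 3) of all FPKM in control libraries, 2.24 ± 0.0777% at the low dose and 2.21 ± 0.160% at the high dose, and the libraries of the groups overlapped. Over the expressed genes, median levels by complex were 48.1 FPKM for complex I, 113 FPKM for complex II, 106 FPKM for complex III, 200 FPKM for complex IV and 121 FPKM for complex V. The complex I value includes its 7 assembly factors, with a median of 13.9 FPKM, while its accessory subunits had 53.4 FPKM. The subunits within a complex were far from equal in FPKM. In complex V, Atp5b, the catalytic beta subunit, reached 2655 FPKM, while Atp5a1, the alpha subunit with which it alternates in the catalytic head, had 483 FPKM. In complex I the highest level was that of the accessory subunit Ndufb8 (182 FPKM), and the 7 core subunits, which carry the flavin and the iron-sulfur clusters or line the quinone site, had a median of 72.7 FPKM. The 7 complex I assembly factors, which build the complex and do not stay in it, lay between 3.21 FPKM (Ndufaf3) and 44.3 FPKM (Ndufaf2).

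**Figure D1:**
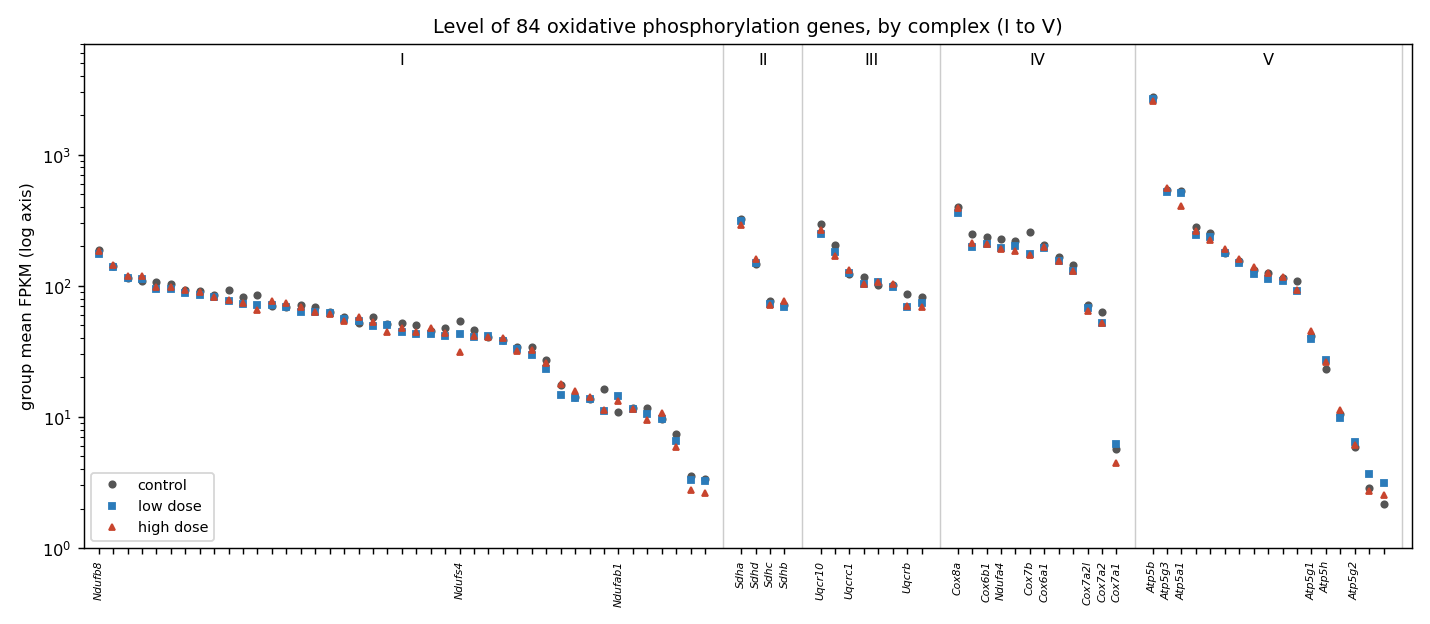
Group mean FPKM (log axis) of the 84 tested genes, ordered by level within complexes I to V, with names for the genes the naming rule picked; each gene has a point for control, low dose and high dose. The points of a gene mostly coincide, Atp5b stands highest at 2655 FPKM on average, and the high-dose point of Ndufs4 lies visibly below its control point.

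Of the isoform groups described next, the widely expressed form had the higher level in those of subunits 6a, 6b, 7a and 8. Cox6a1 had 199 FPKM and the muscle form Cox6a2 had 0.416 FPKM. Cox6b1 had 218 FPKM and the testis form Cox6b2 was above 0 in a single library. Cox8a had 383 FPKM, while Cox8b and Cox8c were listed at 0 in all 9 libraries. Cox7a2 had 55.8 FPKM against 5.42 FPKM for the muscle form Cox7a1, whose libraries ranged from 2.81 to 12.8 FPKM. Cox7a2l, which encodes a factor that joins complexes III and IV into supercomplexes, had 67.9 FPKM. Cox7b had 201 FPKM and Cox7b2 was listed at 0 throughout. Ndufa4, first counted with complex I and now known as a subunit of complex IV, had 205 FPKM, and its relative Ndufa4l2, a known hypoxia-responsive gene, did not exceed 0.161 FPKM in any library. Cox4i2, the oxygen-responsive isoform of subunit 4, was above 0 in a single library. Cox6a2, Cox6b2, Cox8b, Cox8c, Cox7b2, Ndufa4l2 and Cox4i2 were the 7 genes that missed the filter, all of them counted here with complex IV. The 3 genes for the c subunit of the ATP synthase rotor, which encode an identical mature protein, differed widely: Atp5g3 had 541 FPKM, Atp5g1 42.0 FPKM and Atp5g2 6.16 FPKM.

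High dose against control was the comparison in which genes of the set passed the test (limma on log2(FPKM + 1), adjusted p under 0.05 over all tested genes; fold changes are on this scale, which understates those of low genes). Only Ndufs4 and Atp5a1 did so (2 of 84, both lower), against 2.11% of all tested genes in either direction and 1.41% in the lower direction, so the share of 2.38% was near the background. No gene of the set passed as higher, against 0.708% of all genes.

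Ndufs4 encodes an accessory subunit that is needed for a stable and active complex I, and its loss is a known cause of Leigh syndrome. It lies on chromosome 13 of GRCm38 from 114287795 to 114388094 on the minus strand (ENSMUSG00000021764). Its FPKM were 60.2, 53.2 and 48.2 in the control libraries, 49.8, 36.6 and 42.3 at the low dose, and 34.7, 28.5 and 30.7 at the high dose. All 3 high-dose libraries were below all libraries of the other groups, while low-dose and control values overlapped. The group means were 53.9 ± 6.04, 42.9 ± 6.62 and 31.3 ± 3.14 FPKM (SD, n = 3), and the log2 fold change at the high dose was -0.76 (SE 0.12, limma adjusted p = 0.0196), a mean 41.9% lower. At the low dose the log2 fold change was -0.33 (adjusted p = 1, unadjusted p = 0.0277), and between the doses it was -0.44 (adjusted p = 0.167). The direction at the high dose held in each of the 9 fits with a library removed, but the call was lost without control replicate 1 (adjusted p = 0.084), without control replicate 2 (0.0926), without high dose replicate 2 (0.0642) and without high dose replicate 3 (0.075), and also with only the 6 libraries compared (0.0692) or without control replicate 1 and high dose replicate 1 together (0.0574).

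Atp5a1 encodes the alpha subunit of the ATP synthase head (ENSMUSG00000025428, chromosome 18 of GRCm38, 77773729 to 77782869, plus strand). Its FPKM were 532, 519 and 530 in control, 503, 497 and 535 at the low dose, and 440, 403 and 386 at the high dose. Here too the high-dose libraries lay below all 6 others, and the low dose overlapped control. The group means were 527 ± 7.33, 512 ± 20.2 and 409 ± 27.6 FPKM (SD, n = 3), and the log2 fold change at the high dose was -0.37 (SE 0.06, limma adjusted p = 0.0197), a mean 22.3% lower. Between the doses the log2 fold change was -0.32 (adjusted p = 0.0523). The high-dose call was lost without control replicate 1 (adjusted p = 0.0865), control replicate 2 (0.0905), control replicate 3 (0.0676), high dose replicate 2 (0.0616) or high dose replicate 3 (0.075), again with the same direction in each, and also with quantile normalization (0.103), with the replicate number as a block (0.0593) or with only the 6 libraries compared (0.0937). Its partner Atp5b, with 2870, 2845 and 2496 FPKM in control and 2678, 2333 and 2662 at the high dose, overlapped between groups (log2 fold change -0.10, adjusted p = 0.623).

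**Figure D2:**
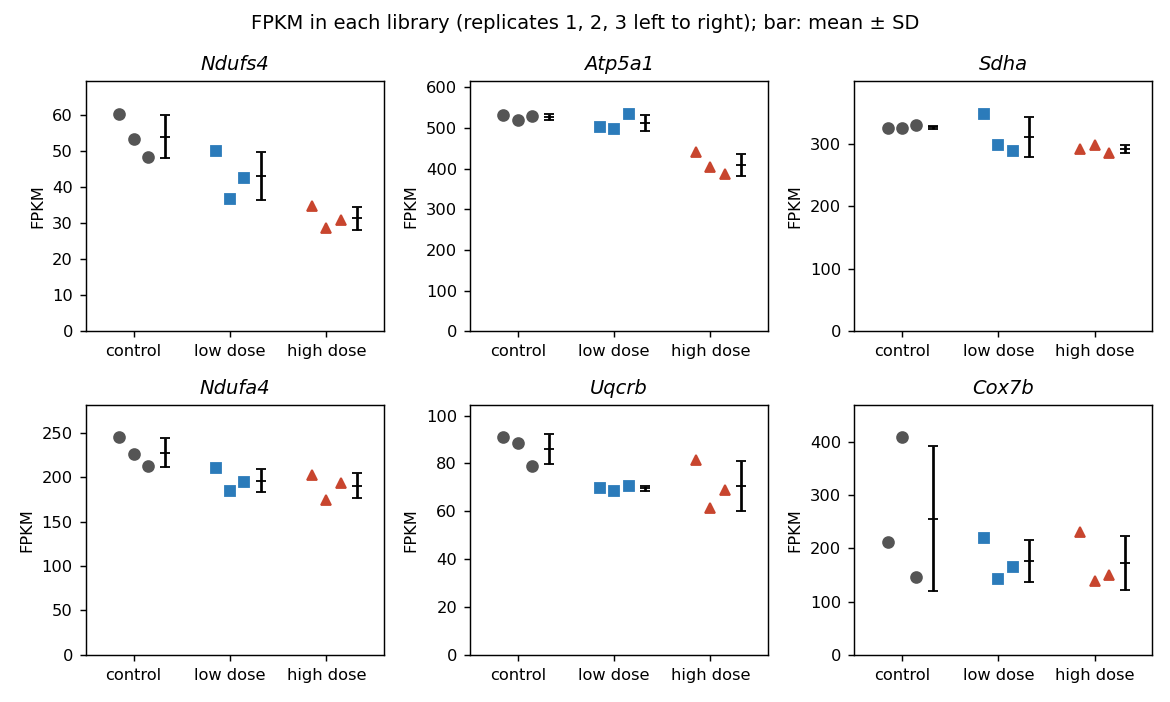
FPKM of 6 genes in each of the 9 libraries (points, replicates 1 to 3 from left to right in each group) with the mean and SD of each group beside them; every axis starts at 0. Ndufs4 and Atp5a1 at the high dose sit below all other libraries, Sdha and Ndufa4 at the high dose sit below all control libraries, and Cox7b has a single control library at 408 FPKM.

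At an unadjusted p under 0.05, 6 of the 84 genes were lower at the high dose and none was higher, against 9.69% and 9.67% of all tested genes. Besides Ndufs4 and Atp5a1 these were Ndufa4, Uqcrb, Ndufa1 and Sdha, of which Ndufa1 was named after its values were seen. None of these 4 passed after adjustment. Ndufa1, a small accessory subunit of complex I, had 95.2, 86.1 and 73.6 FPKM in control and 80.1, 56.3 and 59.3 at the high dose (log2 fold change -0.39, adjusted p = 0.166; 0.0281 without high dose replicate 1 and 0.0364 after correction for length and GC content). The control and high-dose libraries of Ndufa1 overlapped only through control replicate 3 and high dose replicate 1. By the plainer measure of libraries that do not overlap, 4 of the 84 genes were lower at the high dose (Ndufs4, Atp5a1, Sdha and Ndufa4), against 11.4% of all genes. A single gene was higher, against 12.5%: Ndufs1, the largest core subunit of complex I (114 ± 1.79 FPKM in control and 119 ± 1.96 at the high dose, log2 fold change 0.06, adjusted p = 0.509), also named after its values were seen.

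In complex I, 28 of the 43 genes had a log2 fold change below 0 at the high dose, with a median of -0.07, beside 50.4% of all tested genes below 0 and a median of -0.00. A single library turned this direction: 39 of 43 were below 0 without high dose replicate 1 (median -0.20) and 19 of 43 without high dose replicate 2 (median 0.0063). At the low dose 35 of 43 were below 0 (median -0.08), and 27 after a correction of each library for length and GC content (median -0.04). The 7 core subunits and the 29 accessory subunits lay on different sides of 0: all 7 core subunits were above 0 (median 0.06) and 25 of the 29 accessory subunits below 0 (median -0.12). In the low-dose comparison 2 of 7 core and 27 of 29 accessory subunits were below 0, with medians of 0.01 and -0.12. These 2 classes also differ in transcript length, with 2 of the 7 core and 22 of the 29 accessory genes under 1000 nt, and its part in the difference was not tested. After the same correction the high-dose counts were the same, 0 of 7 and 25 of 29, and with quantile normalization they were 1 of 7 and 24 of 29. The low-dose counts after the correction were 1 of 7 and 22 of 29, the latter with a median of -0.08. The core subunits rested on a single library: without high dose replicate 1, 5 of 7 were below 0 with a median of -0.04, and 28 of the 29 accessory subunits with a median of -0.25. Without high dose replicate 2 the accessory count was 17 of 29 with a median of -0.02, and without control replicate 1 it was 20 with a median of -0.05. The low-dose core count was 5 of 7 without control replicate 2. Apart from Ndufs4 no gene of the complex passed the test at either dose. The largest positive value was that of Ndufab1, the acyl carrier protein of the mitochondrion, at 13.3, 12.2 and 7.21 FPKM in control and 20.4, 9.65 and 9.92 at the high dose (log2 fold change 0.23, adjusted p = 0.752). Its libraries were spread widely in every group (12.5, 19.8 and 11.2 FPKM at the low dose), and the value was -0.10 without high dose replicate 1 and -0.02 without control replicate 3.

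Complex II, the only complex with no mitochondrially encoded part, is also an enzyme of the tricarboxylic acid cycle. Sdha, its flavoprotein, had 324, 324 and 329 FPKM in control, 348, 297 and 288 at the low dose, and 291, 298 and 285 at the high dose. The high-dose libraries were all below the control libraries, while the low dose had a library above all control libraries and overlapped the high dose. The log2 fold change was -0.16 at the high dose (adjusted p = 0.253) and -0.07 at the low dose (adjusted p = 1). The iron-sulfur subunit Sdhb had 71.4 ± 2.43 FPKM in control and 76.7 ± 7.47 at the high dose (log2 fold change 0.10). The membrane anchors Sdhc and Sdhd had log2 fold changes of -0.10 and 0.10 at the high dose, with adjusted p-values of 0.654 and 0.514.

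In complex III, which has 8 genes here, 5 were below 0 at the high dose (median -0.16) and 6 at the low dose (median -0.15). With a library removed the high-dose median lay between -0.31 (without high dose replicate 1) and -0.059 (without control replicate 1), and the low-dose median between -0.27 (without control replicate 3) and -0.061 (without control replicate 1). The low-dose median was -0.045 after the correction for length and GC content. The highest level was that of Uqcr10, a small subunit, with 343, 299 and 243 FPKM in control, 236, 245 and 260 at the low dose and 334, 230 and 242 at the high dose. The control and high-dose groups of Uqcr10 spanned almost the same range (log2 fold change -0.14, adjusted p = 0.669). Uqcrc1, a core subunit that faces the matrix, had 124 ± 1.19 FPKM in control and 132 ± 13.8 at the high dose (log2 fold change 0.09, adjusted p = 0.542). Uqcrb, a subunit that takes part in ubiquinone binding, had 90.9, 88.4 and 78.8 FPKM in control, 69.8, 68.3 and 70.5 at the low dose, and 81.6, 61.2 and 68.8 at the high dose. Its low-dose libraries were all below control (log2 fold change -0.30, adjusted p = 1, unadjusted p = 0.0142), while at the high dose replicate 1 overlapped control (log2 fold change -0.29, adjusted p = 0.159; 0.0290 without high dose replicate 1).

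Complex IV was the complex in which every expressed gene lay below 0: 12 of 12 at the high dose (median -0.21) and 12 of 12 at the low dose (median -0.15), none of which passed the test. The comparisons share the control libraries, so they are no independent count. Of the 12 genes, 10 have transcripts under 1000 nt, and the count stayed 12 of 12 after the correction for length and GC content, with medians of -0.14 and -0.07. At the high dose it was 11 without control replicate 1 and 9 without high dose replicate 2, with medians of -0.13 and -0.12, and at the low dose 11 without control replicate 3 and 11 with all libraries scaled to the same sum. The part of length was not tested. Ndufa4 had 245, 226 and 213 FPKM in control, 210, 184 and 194 at the low dose, and 202, 175 and 193 at the high dose. Both treated groups lay below control in every library, with log2 fold changes of -0.21 and -0.26 and adjusted p-values of 1 and 0.124. Cox7b had the lowest value of the complex, -0.47 at the high dose (adjusted p = 0.518), and it rested on a single control library: 211, 408 and 147 FPKM in control against 231, 138 and 150 at the high dose. Cox8a, the gene of the complex with the highest level, had 438, 388 and 374 FPKM in control and 481, 323 and 364 at the high dose, so its high-dose libraries lay on both sides of control. Cox7a2, Cox7a1, Cox6b1 and Cox7a2l had log2 fold changes of -0.30, -0.29, -0.17 and -0.14 at the high dose, with adjusted p-values between 0.393 and 0.760.

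In complex V, 7 of 17 genes were below 0 at the high dose (median 0.04) and 13 of 17 at the low dose (median -0.06). Without high dose replicate 1, 14 of 17 were below 0 and the high-dose median was -0.13, and with copies summed it was -0.05. Only 8 of 17 were below 0 at the low dose with all libraries scaled to the same sum (median 0.01). The fall of Atp5a1 was the only call. Atp5h, the d subunit of the peripheral stalk, had 25.9, 22.3 and 21.7 FPKM in control, 25.2, 25.5 and 31.0 at the low dose and 28.4, 26.8 and 23.9 at the high dose, with log2 fold changes of 0.21 and 0.17 (adjusted p = 1 and 0.405). Its control and treated libraries overlapped.

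**Figure D3:**
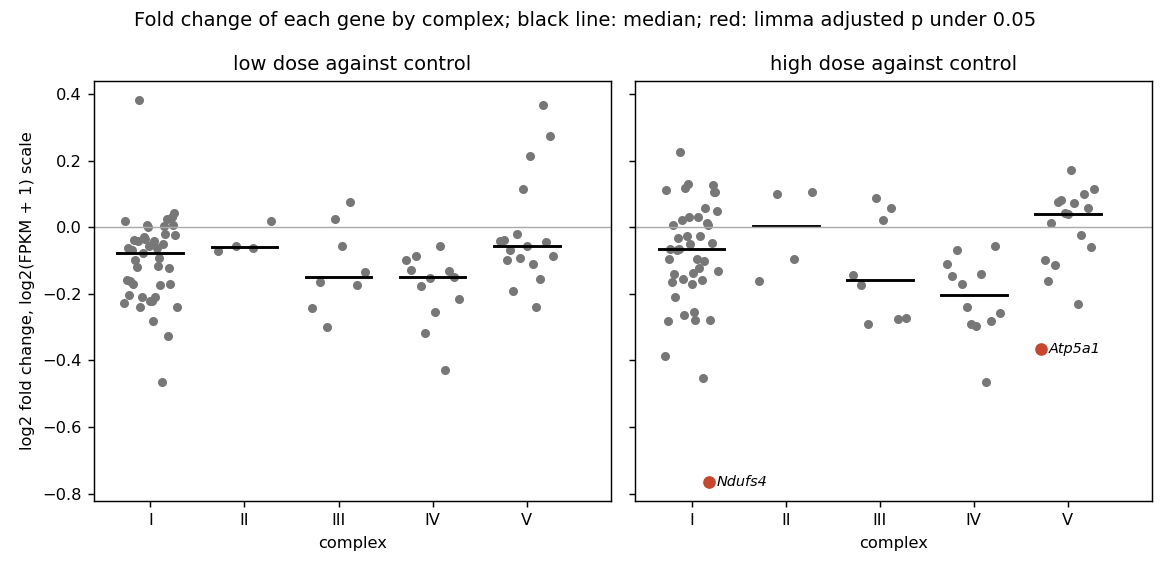
Log2 fold change of each of the 84 genes at the low dose (left) and the high dose (right) against control, on the log2(FPKM + 1) scale, by complex; the black line is the median and red points passed limma at an adjusted p under 0.05. All 12 complex IV genes lie below 0 in both panels, and Ndufs4 at -0.76 and Atp5a1 at -0.37 are the red points.

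Over the 84 genes, 54 were below 0 at the high dose (median -0.08) and 69 at the low dose (median -0.09), beside 5624 and 5555 of all 11161 tested genes with medians of -0.00 and 0.00. The high-dose count rested on single libraries: without high dose replicate 1 it was 73 with a median of -0.21, and without high dose replicate 2 it was 41 with a median of 0.0034. The low-dose median stayed below 0 in each of the 9 fits with a library removed, from -0.15 to -0.034 (59 genes without control replicate 1). After the correction for length and GC content the counts were 53 and 59, both with a median of -0.05, and with all libraries scaled to the same sum they were 50 and 51, with medians of -0.04 and -0.03. Without correction, 90 tested cytosolic ribosomal protein genes gave similar values: 61 below 0 at the high dose (median -0.07) and 69 at the low dose (median -0.09). Of 77 mitochondrial ribosomal protein genes, 30 were below 0 at the high dose (median 0.08) and 57 at the low dose (median -0.04). Within the oxidative phosphorylation set no gene passed at the low dose. An unadjusted p under 0.05 was reached by 3 of its genes (Ndufs4, Uqcrb and Ndufa4, all lower), against 3.28% of all genes, 1.54% lower and 1.74% higher. By libraries that do not overlap, 6 genes were lower at the low dose and none higher, against 4.61% and 6.14%. Between the doses none passed, against 0.851% of all tested genes (0.636% lower and 0.215% higher), and the median log2 fold change was 0.02. At an unadjusted p under 0.05 there were 4, against 14.3% of all genes: Ndufs4 and Atp5a1 had lower values at the high dose than at the low dose (7.8% of all genes), and the assembly factor Ndufaf1 and Atp5sl higher ones (6.49%), the last 2 named after their values were seen. Without any overlap of the doses there were 3 genes lower and 2 higher at the high dose, against 9.99% and 9.37%.

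The spread between libraries had a common direction across the set. The median deviation of the 84 genes from their own means was 0.17, 0.04 and -0.05 (log2) in the control libraries, -0.05, -0.10 and 0.03 at the low dose, and 0.22, -0.17 and -0.11 at the high dose. Control replicate 1 and high dose replicate 1 were the highest, in different groups. The 90 tested cytosolic ribosomal protein genes, which are also short and abundant, gave 0.16, 0.05 and -0.07, then -0.07, -0.08 and 0.04, then 0.22, -0.17 and -0.13, close to the same order. Transcript length moved with part of this pattern. In control replicate 1 the genes of the set under 1000 nt had a median deviation of 0.27 and the longer ones 0.07. In high dose replicate 1 both were raised alike, at 0.23 and 0.21. The set had a median length of 810 nt against 2483 nt over all tested genes, and 50 of the 84 genes were under 1000 nt against 14.4% of all. At the high dose the 50 short genes had a median log2 fold change of -0.14 and the 34 longer ones 0.02, while other short genes had -0.04. At the low dose these medians were -0.14, -0.04 and -0.07. After the correction for length and GC content the median deviation of the set was 0.11 in control replicate 1 and 0.07 in high dose replicate 1. In high dose replicate 1 the short genes then had 0.05 and the longer ones 0.12. The part of length in the fold changes of single genes was not tested, and both genes that passed are longer than 1000 nt, with log2 fold changes of -0.75 (Ndufs4) and -0.36 (Atp5a1) after the correction.

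**Figure D4:**
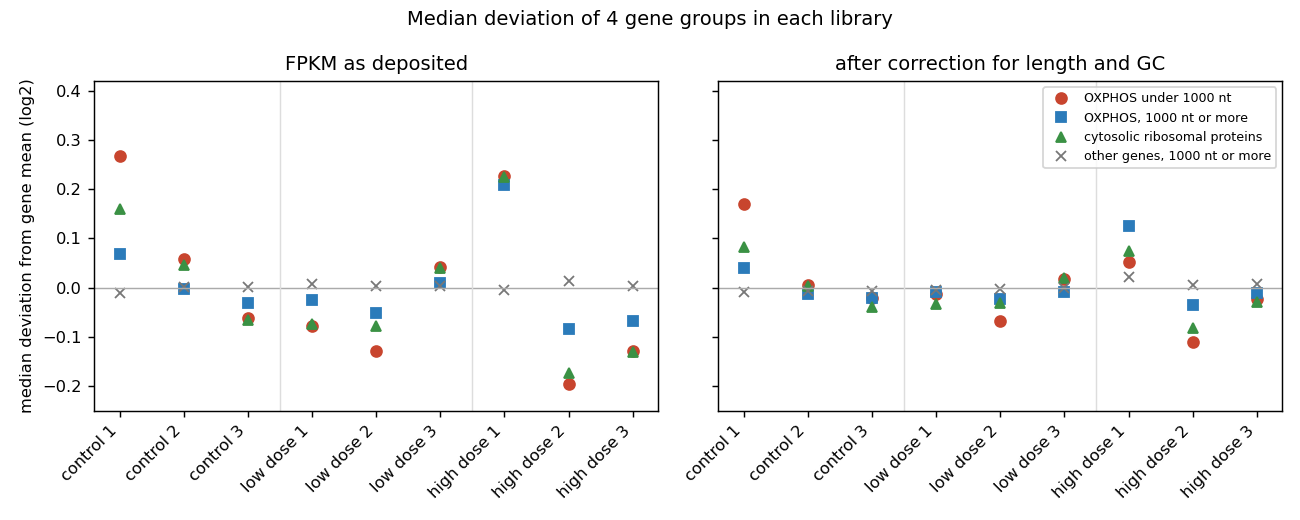
Median deviation (log2) from each gene's own mean in the 9 libraries, for short and longer oxidative phosphorylation genes, cytosolic ribosomal protein genes and other genes of 1000 nt or more, before (left) and after (right) a correction for transcript length and GC content. On the left, control 1 and high dose 1 stand above the rest at 0.27 and 0.23 for the short genes, which are at 0.17 and 0.05 on the right, while the other long genes stay near 0. The longer oxidative phosphorylation genes are at 0.07 and 0.21 on the left and at 0.04 and 0.12 on the right.

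Some genes of the set share most of their sequence with other genes, nearly all annotated as processed pseudogenes, and the estimate then depends on how reads that fit both were shared out. Among the 84 genes, 8 had another gene in the table that matched at least 50% of their transcript at 95% identity or more. For 3 of these the copies held more FPKM than the gene itself. Atp5l, the g subunit of the ATP synthase, had 2.61 FPKM while its copy Gm10221 (chromosome 5, 24581458 to 24581879) had 113 FPKM. Atp5h had 25.6 FPKM and its copy Gm10250 had 91.6 FPKM. Uqcrb had 75.4 FPKM and its 3 copies 192 FPKM in sum, most of it in Gm2962. The start of the coding sequence of Uqcrb and the matching stretch of Gm2962 (chromosome 1 of GRCm38, 170925309 to 170925644, minus strand), both from GENCODE, show how little sequence separates them, the capital marking the only base that differs in these 150.
Uqcrb: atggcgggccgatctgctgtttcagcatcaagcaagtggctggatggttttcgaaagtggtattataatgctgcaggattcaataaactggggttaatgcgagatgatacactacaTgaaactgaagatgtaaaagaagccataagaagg
Gm2962: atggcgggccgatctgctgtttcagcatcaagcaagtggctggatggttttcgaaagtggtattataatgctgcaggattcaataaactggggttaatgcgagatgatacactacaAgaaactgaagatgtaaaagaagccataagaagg

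Over the whole coding sequence, 6 of 336 bases differed. For Ndufs3, Atp5o and Atp5k the copies held 28.1%, 20.7% and 13.0% of the summed FPKM. The copy of Atp5k, Gm14337, was listed at 0 in 6 libraries and at 70.4, 64.3 and 27.4 FPKM in the other 3, which lay in the control and low-dose groups. The levels of these 6 genes are therefore uncertain. Summed with its copies, Uqcrb had 312 ± 49.7 FPKM in control, 251 ± 17.0 at the low dose and 238 ± 24.6 at the high dose (SD, n = 3; log2 fold change -0.38 at the high dose, adjusted p = 0.136). Atp5h summed with its copies had log2 fold changes of -0.057 at the high dose and -0.042 at the low dose, against 0.17 and 0.21 for the gene alone. Neither Ndufs4 nor Atp5a1 had such a copy.

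**Figure D5:**
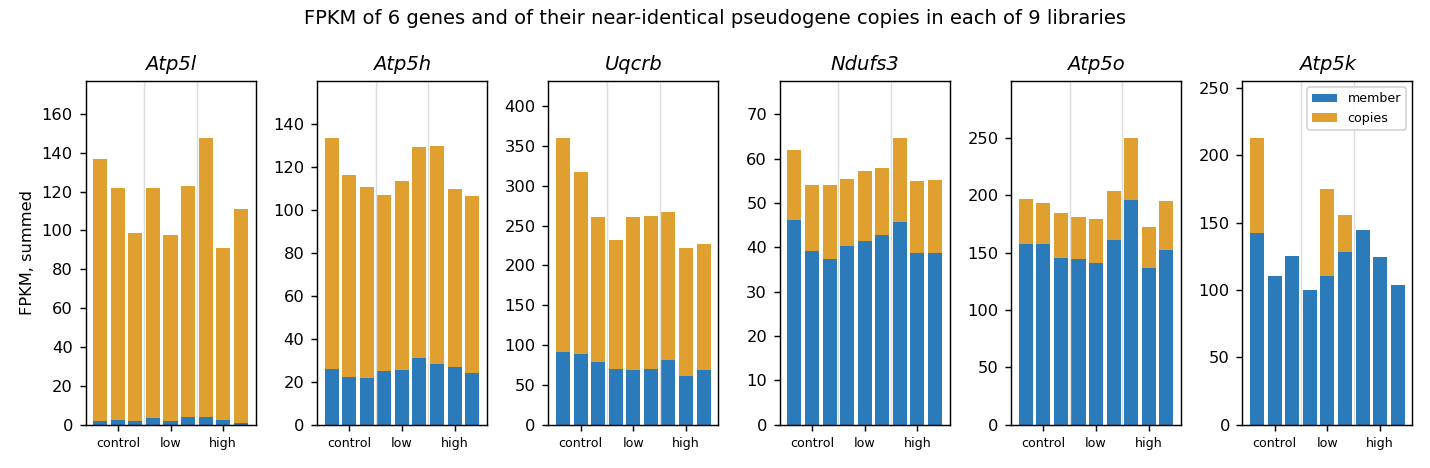
FPKM of the 6 genes whose pseudogene copies hold over 10% of the summed signal, one bar for each of the 9 libraries (control, low dose and high dose from left to right, blue for the gene and orange for its copies). Orange fills most of each bar for Atp5l, Atp5h and Uqcrb, and the orange part of Atp5k appears in only 3 libraries.

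Promoters of nuclear oxidative phosphorylation genes are known for sites of the factors NRF1, GABP (an ETS factor), YY1 and Sp1. RefSeq windows of 300 bases (250 before to 50 after a start site, GRCm38.p6) matched 73 of the 84 expressed genes, with 79 windows. The NRF1 core CATGCGC stood on either strand in 19% of these windows, against 7.65% of the 10306 windows of all tested genes and 3.91% of all 32851 windows. The YY1 letters AAGATGG were in 16.5%, 7.62% and 6.34% of the same windows. CGGAAG (ETS) was in 41.8%, 34.2% and 16.9%, and GGGCGG (Sp1) in 41.8%, 64% and 35.7%. The median log2 fold change at the high dose was -0.03 in the 15 windows with the NRF1 core and -0.09 in the 64 without. Windows with and without the YY1 letters had -0.03 and -0.08, those for ETS -0.07 and -0.08, and those for Sp1 -0.06 and -0.08. The difference was thus not particular to NRF1. The following sequences show the core before the start site in example genes of complexes I, II, IV and V. They were not picked from every window, so they need not be the genes of the highest level with the core. Capitals mark any of the 4 motifs, which may overlap.
Ndufa8 (complex I, chr2:36049339-36049398, minus strand): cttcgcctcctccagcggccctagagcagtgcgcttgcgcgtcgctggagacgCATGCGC
Sdhb (complex II, chr4:140961191-140961250, plus strand): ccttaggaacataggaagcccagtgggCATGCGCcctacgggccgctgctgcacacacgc
Cox6a1 (complex IV, chr5:115349088-115349147, minus strand): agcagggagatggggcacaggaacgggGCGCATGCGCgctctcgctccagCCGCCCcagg
Atp5k (complex V, chr5:108434417-108434476, minus strand): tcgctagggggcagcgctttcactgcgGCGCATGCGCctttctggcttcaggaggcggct

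For Ndufs4, the gene of the set with the largest fall, the 250 bases of the window before the start site are shown. None of the 4 motifs lay wholly within this stretch on either strand, so it has no capitals. The bases after the start site are not shown.
Ndufs4 (chr13:114388095-114388344, minus strand): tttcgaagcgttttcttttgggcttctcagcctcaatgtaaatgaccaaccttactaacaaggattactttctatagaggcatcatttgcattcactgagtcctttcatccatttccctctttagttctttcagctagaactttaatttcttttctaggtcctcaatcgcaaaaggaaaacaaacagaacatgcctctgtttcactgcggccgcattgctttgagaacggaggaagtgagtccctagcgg

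The regulators themselves were expressed and none of 15 tested passed at the high dose, with 7 below and 8 above 0. Nrf1 had 28.8 ± 1.07 FPKM in control and 31.8 ± 2.03 at the high dose (log2 fold change 0.14, adjusted p = 0.366), and Gabpa, the DNA-binding part of GABP, had 0.11 (adjusted p = 0.386). Esrra, the estrogen-related receptor that drives many of these genes with PGC-1 coactivators, had 14.7 ± 0.285 FPKM in control, 17.5 ± 0.941 at the low dose and 18.9 ± 2.49 at the high dose (log2 fold change 0.33 at the high dose, adjusted p = 0.0981; 0.0305 without high dose replicate 2). Of those coactivators Ppargc1a was near 0 at 0.0533 FPKM and Ppargc1b had 6.84 FPKM. Myc, which also acts on mitochondrial genes, had the lowest value of this list at -0.38 (adjusted p = 0.0963; 0.0391 in limma without trend).

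Among 30 tested genes for transcription, RNA handling and upkeep of the mitochondrial genome, 9 were below 0 and none passed. Tfam, which packages mitochondrial DNA and starts its transcription, had a log2 fold change of 0.05, and the mitochondrial RNA polymerase Polrmt had 13.0 ± 1.12 FPKM in control and 13.6 ± 0.674 at the high dose. Slirp and Lrpprc form a complex that stabilises mitochondrial mRNA. Slirp had 69.4, 69.1 and 46.3 FPKM in control, 53.5, 45.6 and 47.1 at the low dose and 52.9, 30.1 and 24.3 at the high dose (log2 fold change -0.82, adjusted p = 0.139; 0.0205 without high dose replicate 1), so that only high dose replicate 1 overlapped control. With the replicate number as a block and the length and GC correction, the limma adjusted p of Slirp was 0.0496. Its partner Lrpprc had 0.14 (adjusted p = 0.448). Trmt10c, part of the mitochondrial RNase P, had the highest value of the list at 0.24 (adjusted p = 0.103). The 77 mitochondrial ribosomal protein genes had a median log2 fold change of 0.08 with 30 below 0 at the high dose, and none passed; without high dose replicate 1 the median was -0.04.

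Of 39 assembly factors with other names, 20 were below 0 at the high dose and none passed. The ends of this list were Sco2, which brings copper to complex IV (5.07 ± 1.33 FPKM in control and 8.03 ± 0.949 at the high dose, log2 fold change 0.59, adjusted p = 0.100), and Cox20, a chaperone of a complex IV core subunit (-0.45, adjusted p = 0.142; 0.0485 without high dose replicate 1). Cox20 also passed with the replicate number as a block and the length and GC correction (limma adjusted p = 0.0316). Of the 8 electron carriers and subunits outside the naming rule, 7 were below 0 and none passed. The gene above 0 was Cyc1, the cytochrome of complex III, at 129 ± 1.85 FPKM in control and 140 ± 23.4 at the high dose (log2 fold change 0.11). Usmg5, a small ATP synthase subunit and below 0, had 275 ± 43.2 and 261 ± 49.1 FPKM. Atpif1, the inhibitor of the ATP synthase, had a log2 fold change of -0.18 (adjusted p = 0.491). Cycs, cytochrome c itself, was listed at only 2.62 FPKM, with 4.95, 2.30 and 2.71 FPKM in control and 1.88, 1.94 and 1.89 at the low dose (log2 fold change -0.52, adjusted p = 1). Copies were searched only for the 91 genes of the set, so their part in the listed level of Cycs was not tested.

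In the tricarboxylic acid cycle, 10 of 18 genes were below 0 at the high dose and none passed. Suclg2, a subunit of succinyl-CoA ligase, was the lowest at -0.23, with 33.6, 32.7 and 32.6 FPKM in control and 29.4, 26.9 and 27.4 at the high dose (adjusted p = 0.0542; 0.0151 without high dose replicate 1). Suclg2 passed in 7 of the 24 alternatives, among them length and GC correction (limma adjusted p = 0.0291) and quantile normalization (0.0448). Mdh2, the mitochondrial malate dehydrogenase, was the highest at 0.14 (adjusted p = 0.378). Of 13 carriers, uncoupling proteins and antioxidant enzymes of the mitochondrion, a single gene passed. Sod2, the manganese superoxide dismutase that removes the superoxide made by complexes I and III, fell at the high dose. Its FPKM were 106, 102 and 96.5 in control, 92.2, 95.5 and 98.7 at the low dose, and 78.5, 75.1 and 77.4 at the high dose. The high-dose libraries lay below all others, with a log2 fold change of -0.39 against control (limma adjusted p = 0.00962) and -0.31 against the low dose (adjusted p = 0.0389). The call against control was lost without control replicate 1 (adjusted p = 0.0505) or control replicate 2 (0.0572), with only the 6 libraries compared (0.0692) and with the replicate block (replicate number as a term) together with the length and GC correction (0.0666). The call against the low dose was lost in 8 of the 9 fits with a library removed, all but that without high dose replicate 1 (up to 0.139). It was also lost with the length and GC correction (0.107), the replicate block (0.113), both together (0.156), limma without trend (0.0613) and only the 6 libraries compared (0.126). The uncoupling protein Ucp2 had 125 ± 5.22 FPKM in control and 153 ± 19.3 at the high dose (log2 fold change 0.28, adjusted p = 0.136).

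Of the 10 tested microglial markers all were below 0 at the high dose (9 with quantile normalization, with all libraries scaled to the same sum, or without control replicate 1, high dose replicate 2 or high dose replicate 3). Among them Emr1, a macrophage surface receptor, fell (log2 fold change -0.67, limma adjusted p = 0.00224), a call kept in each of the 9 fits with a library removed. The summed FPKM of the 13 markers in the table ranged from 1342 to 1528 in control, from 1349 to 1419 at the low dose and from 1207 to 1348 at the high dose. Their part in the values of Ndufs4, Atp5a1 and Sod2 was not tested.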

How the data were processed

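Total RNA of 9 BV2 libraries was enriched for poly-A mRNA and sequenced. Per the study's methods the authors filtered low-quality reads, mapped them with TopHat and estimated abundance by Cufflinks 2.1.1 on an Ensembl annotation of GRCm38, with correction for reads that map to several places and for fragment bias; the deposited values are FPKM per gene, used as deposited. How a read that fits several copies was shared out can change a gene's level. FPKM keep no read totals.

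Genes averaging 1 FPKM or more were tested on log2(FPKM + 1) with limma 3.58.1 (R 4.3.3, eBayes with trend, 3 groups in a single fit, Benjamini-Hochberg over 11161 genes), so fold changes of low genes are understated. The script was tested on simulated data. Genes were named by a rule: those that passed, all Sdh genes, the highest level and the largest positive and negative fold change of each complex, the isoform groups, genes under the filter, and fixed companions, to which come genes with copies, those whose promoter is shown and the few said to be named after their values were seen. Genes, lists and rule were chosen with earlier results of these data known. Transcript lengths, GC and copies (blastn 2.17.0+) came from GENCODE M21, promoters from RefSeq. Groups came from the labels. The 24 alternatives covered pseudocount, filter, scaling, length and GC, replicate block, left-out libraries and summed copies; 2 were chosen after seeing the data. The share of mitochondrially encoded genes was not analysed here, and the values of a few single genes are not reported here.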

Additional observations from a re-analysis of the deposited data

How the results depend on the processing

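The direction of Ndufs4 and Atp5a1 at the high dose held under all 24 alternatives, with log2 fold changes from -0.84 to -0.68 and from -0.42 to -0.27, while 18 and 16 of the fits passed. The number of genes of the set that passed there was 2, and it was 1 with quantile normalization and 1 with the replicate block (Ndufs4 in both), 0 with only the 6 libraries compared, 1 without control replicate 1 and high dose replicate 1 together (an alternative chosen after seeing the data, like the summed copies), and 0 to 5 with a library left out, the 5 being Atp5a1, Ndufa1, Ndufb5, Ndufs4 and Uqcrb without high dose replicate 1. Length and GC correction added Ndufa1. Between the doses it was 0, and 1 with a pseudocount of 0.1, a filter of 5 FPKM, median-of-ratios rescaling, equal sums, length and GC correction, the replicate block with that correction, or without the same 2 libraries, and 0 to 1 with a library left out. Over all genes at the high dose the count was 236, and 840 with length and GC correction, 106 with the replicate block, 395 with both, 22 with only 6 libraries and 31 to 539 with a library left out. At the low dose it was 0, and 4 with no filter, 1 with only 6 libraries, 2 without the same 2 libraries and 0 to 2 with a library left out. Between the doses it was 95, and 313, 13, 150 and 6 under the same 4 settings in turn, and 8 to 191 with a library left out. The main fit did not treat the replicate numbers as pairs. Deviations of same-numbered libraries had correlations from -0.088 to 0.152. Libraries with different numbers were not compared, so whether the numbers pair the libraries was not tested. Atp5b changed sign under quantile normalization (0.19) and Atp5h when summed with its copies (-0.057 at the high dose and -0.042 at the low dose). Ndufab1 ranged from -0.10 to 0.40 at the high dose with a library left out. The cause of these changes was not tested, except that leaving out libraries or groups also leaves fewer samples. Of the 84 genes, 45 kept the sign of their fold change at the high dose and 50 at the low dose under every alternative. Leaving out possible failed estimates and fitting without trend changed no count of the set. The share of mitochondrially encoded genes was not run. The depth is an estimate from FPKM, so no counting interval was given, and with 3 libraries per group a missed threshold does not show that levels were equal.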
